A study of Mus musculus with 6 samples.

Results

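Exon and untranslated region (UTR) peaks of H3K27ac, the acetylation of lysine 27 on histone H3, were described in mouse quadriceps. A peak belonged here when the authors' annotation of its centre began with exon, 5' UTR, 3' UTR or non-coding, the last being an exon of a transcript with no coding sequence. The control list held 2816 such peaks among 46988 (5.99%) and the detrained list held 2617 among 40721 (6.43%). Both groups were male wild-type mice, C57BL/6 in the labels and C57BL/6J in the methods. Control mice were sedentary, and detrained mice had voluntary running wheels for 4 weeks from 8 weeks of age and then rested for 72 h without a wheel. Each group had 2 H3K27ac libraries, each from the quadriceps of 1 animal, and 1 input library of unselected chromatin, whose strain is labelled C57BL/7 in control and C57BL/8 in detrained mice. The H3K27ac libraries held between 20805019 and 22400894 tags, which are aligned reads, and the inputs held 10812470 in control and 21298438 in detrained mice. Whole muscle was used, so fewer cells of a type and less of the mark per cell cannot be told apart.

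H3K27ac is written by the acetyltransferases p300 and CBP and marks nucleosomes that flank active promoters and enhancers. At a promoter the marked nucleosomes lie on both sides of the transcription start site (TSS), and those on the downstream side cover the 5' UTR and often the first coding exon. An internal exon or a 3' UTR can carry the mark where an enhancer happens to lie there, or where a broad domain covers a whole short gene. The class of a peak therefore names the base at its centre and not the element that the peak belongs to.

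The annotation used here placed the centre inside a RefSeq exon for 99.8% of the control and 99.8% of the detrained members, which checks the build and restates the rule. The exon class was centred in coding sequence for 99.7% in both lists. The tissue label was checked against every peak of the lists. A peak was assigned to 54 of 58 sarcomere genes in control and 53 of 58 in detrained mice, and the strongest peak per gene had a median log2 density between 6.13 and 6.47 in the 4 libraries. Of 16 immune markers, 14 had a peak in control and 12 in detrained mice, with medians between 4.41 and 4.70. Peaks were also assigned to 16 of 16 endothelial markers in both lists, with medians between 4.97 and 5.51, and to 12 of 12 fibroblast markers, with medians between 5.32 and 5.59.

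CG dinucleotides, the sites of DNA methylation that crowd at many mouse promoters, were many in some members and few in others, and short windows of both kinds are shown. The windows below hold 30 bases of mm10 each, 5′ to 3′, with every CG in capitals. The exon windows are centred on the control peak, lie in coding sequence and are given on the plus strand. They belong to the 3 strongest exon pairs (Pnrc1, Ptpmt1, Fgfbp3) and to the exon pairs with the largest decrease (Ppp1r3f) and increase (a peak in Sema6b, named for its neighbour Lrg1). The next 2 windows lie directly upstream of the transcript start of 5' UTR members, on the strand of the gene. The last 2 are centres of the named exon pairs with the fewest CG dinucleotides, again in coding sequence on the plus strand: a peak in Srrm2, named for Mir5125, and a peak in Slc16a1.
Pnrc1, exon 1 of 2, chr4:33248192-33248221: gtggtgCGaggCGCGggCGccaggcaCGgc
Ptpmt1, exon 2 of 5, chr2:90917613-90917642: gCGCGtcatgttcttcagCGgcagCGCGcc
Fgfbp3, exon 2 of 2, chr19:36918956-36918985: ctggcagCGcaaggccagctctcCGccagt
Ppp1r3f, exon 1 of 4, chrX:7574101-7574130: gCGccagaggcagccccagggcctCGtcag
Lrg1 (in Sema6b), exon 17 of 17, chr17:56124759-56124788: gcCGggccagctccCGcCGctCGCGgagac
Tdrd3, upstream of the 5' UTR, chr14:87416553-87416582: ctCGcCGctcccagccCGggcCGgcccctg
Kansl1, upstream of the 5' UTR, chr11:104442292-104442321: cattctccctcCGcttcagattaaaggggg
Mir5125 (in Srrm2), exon 10 of 14, chr17:23817564-23817593: cctgagtcttccacagtactgaaagtcaca
Slc16a1, exon 4 of 5, chr3:104652862-104652891: tggctccacttaatcaggctttctttgata
The first 7 windows held between 1 and 5 CG dinucleotides and the last 2 held 0. Over 1 kb around the peak centre the first 7 members had 69 to 128 CG dinucleotides and 63.7% to 73.6% G and C. The peak in Srrm2 had 1 CG dinucleotide and 42.3% G and C, and that in Slc16a1 had 6 and 44.4%. The peaks at Fgfbp3 and in Sema6b were rich in CG although they spanned no RefSeq start site.

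The members fell into a strong group at start sites and a weak group away from them. In control mice 1619 members (57.5%) spanned a RefSeq TSS, and their median density was 58.2 tags per kb per 10000000 tags in library C2 and 57.5 in C3, the scale of every value in tags per kb that follows. The other 1197 members had log2 medians of 4.53 in C2 and 4.59 in C3, where those at a TSS had 5.86 and 5.84. In detrained mice 1648 members (63.0%) spanned a TSS, with medians of 62.1 in Ex1 and 56.3 in Ex2, against 25.7 and 25.3 for the 969 that did not. The members at a TSS had a median of 69 CG dinucleotides per kb in control and 70 in detrained mice, and the others had 16 in both. Over all peaks of the lists, 11035 control and 10998 detrained peaks spanned a TSS and 35953 and 29723 did not.

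Among the 4 classes, 5' UTR peaks were the strongest and 3' UTR peaks the weakest in every library. For 5' UTR peaks the median log2 density was 5.91 and 5.86 in the control libraries C2 and C3 and 5.99 and 5.85 in the detrained libraries Ex1 and Ex2. For 3' UTR peaks it was 4.58, 4.67, 4.72 and 4.67 in the same order. Exon peaks lay between them at 5.29 in both control libraries, 5.47 in Ex1 and 5.37 in Ex2. Peaks in non-coding exons were close to exon peaks, at 5.26, 5.28, 5.45 and 5.37 in the same order. Within a library, 5' UTR peaks exceeded 3' UTR peaks by 1.25 ± 0.07 on the log2 scale (mean ± SD, n = 4 libraries), a 2.37-fold difference in density. Exon peaks exceeded 3' UTR peaks by 0.70 ± 0.05. All members together were 0.64 ± 0.03 above intron peaks and 0.56 ± 0.08 below promoter peaks. Each of these 4 differences had the same sign in 4 of 4 libraries. The libraries of a group share a peak list, and their tags were divided from pooled tags by shrunken values. They are therefore not independent, and 4 libraries overstate the replication behind the SD and the test below. With 4 libraries, an exact two-sided sign-flip permutation test could give no p below 0.125, and it gave p = 0.125 for each, also after Benjamini-Hochberg adjustment over the 4 differences. Among peaks at least 1 kb from a TSS, members exceeded intron peaks by only 0.03 ± 0.01 and exon peaks exceeded 3' UTR peaks by 0.04 ± 0.05. There 5' UTR peaks still exceeded 3' UTR peaks by 0.84 ± 0.20. That value rests on few 5' UTR peaks, 15 control and 18 detrained from 1 to 10 kb and 5 in each list beyond. The deficit to promoter peaks was 0.32 when only pairs were used and 0.24 among stricter peaks.

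**Figure D1:**
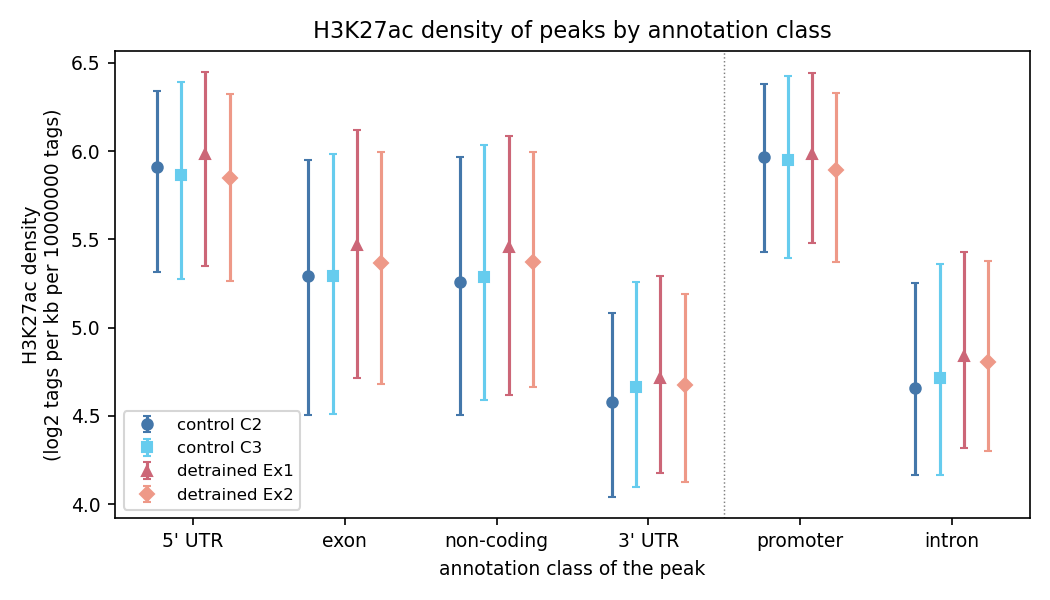
Median H3K27ac density (points) with the quartiles over peaks (bars), in log2 tags per kb per 10000000 tags, for the 4 exon and UTR classes and, right of the dotted line, promoter and intron peaks, in each of the 4 H3K27ac libraries. In every library 5' UTR peaks sit near promoter peaks and 3' UTR peaks near intron peaks, with exon and non-coding peaks between.

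The 5' UTR class resembled promoters in position and level. It held 720 peaks in control and 732 in detrained mice, and 96.4% and 96.7% of them spanned a TSS. Their centres lay downstream of the nearest TSS by a median of 199 bp in the control list and 208.5 bp in the other. Promoter peaks were centred 56 and 55 bp upstream. Among peaks within 1 kb of a TSS, 5' UTR and promoter peaks differed by -0.04 ± 0.03 on the log2 scale (mean ± SD over 4 libraries). Median GC content was 62.5% in control 5' UTR peaks and 57.8% in control promoter peaks, with 74 and 60 CG dinucleotides per kb. The nearest gene was also the gene whose UTR held the centre for 96.8% of the control peaks.

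The strongest 5' UTR pair was at Tdrd3, which encodes a tudor domain protein that binds methylarginine (chr14:87415168-87418214 in control). Control libraries stood at 160 and 189 tags per kb and detrained libraries at 149 and 143, with both detrained libraries lower (log2 ratio -0.25, SD within groups 0.12). The pair at Fam53c had 145 and 143 in control and 160 and 160 in detrained mice, a log2 ratio of 0.15 with no overlap of the groups. Kansl1, a subunit of a histone acetyltransferase complex, had 128 and 143 against 155 and 135, and the groups overlapped.

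Exon peaks were of more than a single kind. Of 1352 control exon peaks, 610 (45.1%) lay in the first of several exons, 529 (39.1%) in a middle exon, 142 (10.5%) in the last exon and 71 (5.25%) in a gene with a single exon. First exons had median densities of 55.0 tags per kb in C2 and 54.5 in C3, and 96.2% of these peaks spanned a TSS. Middle exons had 24.5 and 25.7, and 16.3% spanned a TSS. Last exons stood at 29.2 and 29.8, and single exons at 46.6 and 51.2. In detrained mice the order of first and middle exons was the same, with 59.8 and 53.3 against 28.5 and 28.3. First exons held 74 CG dinucleotides per kb and middle exons 18 in control mice. At the same distance from a TSS, exon and intron peaks were close. Exon peaks exceeded intron peaks by 0.05 ± 0.03 within 1 kb, by 0.08 ± 0.05 from 1 to 10 kb, and were lower by 0.03 ± 0.04 at 10 kb or more (mean ± SD over 4 libraries, log2 scale).

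**Figure D2:**
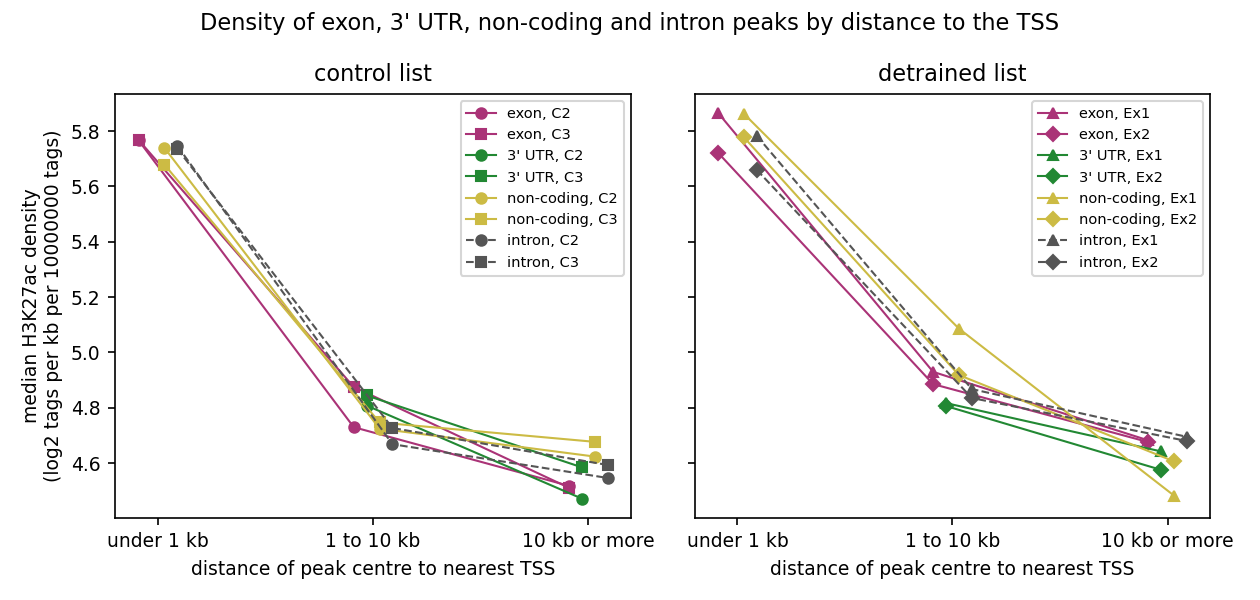
Median H3K27ac density in log2 tags per kb per 10000000 tags by distance of the peak centre to the nearest TSS, for exon, 3' UTR, non-coding and intron peaks (colours) in each library (symbols), with the control list on the left and the detrained list on the right. Points with fewer than 20 peaks are left out. All 4 classes fall with distance and lie close to each other in each bin, except non-coding peaks in Ex1, 0.22 above intron peaks from 1 to 10 kb and at a difference of -0.21 at 10 kb or more.

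The strongest exon pair was in exon 1 of Pnrc1, which encodes a coactivator of nuclear receptors. It stood at 167 and 203 tags per kb in control and 182 and 152 in detrained mice, so the groups overlapped. Exon 2 of Ptpmt1, which encodes a phosphatase of the mitochondrial inner membrane needed for cardiolipin synthesis, had 135 and 138 against 151 and 141. Here both detrained libraries were higher, by 0.10 on the log2 scale, while as tags per peak the ratio was -0.03. Exon 2 of Fgfbp3, a carrier of fibroblast growth factors, had 107 and 151 against 159 and 141, and the control libraries differed more than the groups. The peaks at Pnrc1 and Ptpmt1 spanned a TSS, and that at Fgfbp3 was centred 628 bp from one. All 3 were rich in CG, as their windows above show.

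Of the 4 exon and UTR classes, peaks in 3' UTRs were the most distant from start sites. The 491 control peaks had a median distance to the nearest TSS of 13843 bp, and 308 of them (62.7%) lay at 10 kb or more. Only 6.11% spanned a TSS in control and 9.54% in detrained mice. The nearest TSS belonged to the gene whose UTR held the peak in 44.6% of the control and 43.9% of the detrained peaks. The rest carried the name of a neighbour. Median GC content was 48.3%, and 13 CG dinucleotides per kb were found. At 10 kb or more from a TSS, 3' UTR peaks were 0.06 ± 0.04 below intron peaks on the log2 scale, and from 1 to 10 kb they differed from them by 0.04 ± 0.10.

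The strongest 3' UTR pairs were broad domains that covered the start site of the gene as well. The pair at Irf2bp2, a transcriptional corepressor, measured 14879 bp in control against 15168 bp in detrained mice, with 122 and 143 tags per kb against 134 and 130. Fzd7, a Wnt receptor encoded in a single exon, lay under a peak of 10300 bp, with 93.7 and 118 against 123 and 109. Nmrk2, a muscle kinase that makes nicotinamide mononucleotide from nicotinamide riboside, lay under a peak of 15258 bp, with 93.1 and 117 against 118 and 108. The groups overlapped in each of the 3 pairs.

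Non-coding exons held 253 control and 241 detrained peaks, of which 53.4% and 58.5% spanned a TSS. The strongest pair lay at exon 1 of a non-coding transcript of Eif4a2, whose coding transcripts encode an RNA helicase of translation initiation. It had 162 and 175 tags per kb in control and 192 and 166 in detrained mice. The RIKEN transcript 4930526I15Rik had 137 and 150 against 145 and 134, and C030034I22Rik had 139 and 147 against 142 and 135. In these pairs the groups overlapped. The longest pair of all members was at Neat1, the long non-coding RNA that builds paraspeckles. Its control peak spanned 57233 bp and its detrained peak 55388 bp (chr19:5796253-5853486 in control), with 111 and 122 against 124 and 115 tags per kb. Another of the 3 longest, of the exon class, was at Nr1d1, a clock repressor also known as Rev-erb alpha. Its control peak spanned 16199 bp, with 91.8 and 117 against 125 and 115.

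Titin hosted more members of the control list than any other gene, and they were weak. Titin, the giant spring protein of the sarcomere, has 313 exons in the main transcript used, and 11 control peaks and 4 detrained peaks were centred in its coding exons. Of the 11, 6 carried the name of Plekha3 and 5 that of Ttn, because the nearest start site decides the name. They are the only control gene names with more than 3 members. The control peaks lay between exons 38 and 307, from 33962 to 134744 bp from the nearest TSS. Their log2 density ranged from 3.29 to 4.82 over both libraries, and 5 of the 11 were at the minimum length of 500 bp. None of the 11 overlapped a detrained peak. The 4 detrained peaks ranged from 3.82 to 5.15, and 2 of them overlapped a control peak, in both cases one annotated to an intron. The largest number of pooled tags among the 11 was 190. Among all 1013 control members with at most 190 pooled tags, 501 (49.5%) overlapped no detrained peak, and 37.2% of 812 such detrained members overlapped no control peak. Among peaks of all classes with so few tags the shares were 53.1% of 22849 in control and 39.4% of 16907 in detrained mice. The part of counting depth in the absence of these peaks was not tested.

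Across the lists, members at start sites were found again more often than the others. A control and a detrained peak were paired when at least 50% of each was covered. Of the control members 1985 (70.5%) had a partner of any class, and of the detrained members 2003 (76.5%). The share was 87.5% for control members with a TSS and 47.5% for those without, and 88.1% and 56.9% in detrained mice. Over all peaks of the lists these shares were 88.0% and 46.5% in control and 88.4% and 56.2% in detrained mice, close to those of the members. By class, 88.1% of the control 5' UTR peaks, 68.9% of the exon, 70.0% of the non-coding and 49.3% of the 3' UTR peaks were paired. Promoter peaks were paired at 87.6% and intron peaks at 50.4%, against 56.2% of all control peaks. A further 535 of the 2816 control members overlapped no detrained peak, beside 27.9% of all control peaks. Their median log2 density was 4.12 in C2 and 4.11 in C3, against 5.70 and 5.71 for the paired members, and peaks of all classes without overlap had 4.09 and 4.07.

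The class itself was often not shared by the 2 peaks of a pair. Of the 1985 paired control members 1095 (55.2%) met a detrained member. Another 493 (24.8%) met an intron peak and 359 (18.1%) a promoter peak. Of 634 paired 5' UTR peaks, 262 (41.3%) met a 5' UTR peak, 180 a promoter peak and 135 an intron peak. Of 932 paired exon peaks, 390 (41.8%) met an exon peak, 314 an intron peak and 151 a promoter peak. In contrast 189 of 242 paired 3' UTR peaks (78.1%) met a 3' UTR peak, and 107 of 177 non-coding peaks (60.5%) met a non-coding peak. Outside the members, 79.3% of the paired control promoter peaks, 92.1% of the intron peaks and 98.9% of the intergenic peaks kept their class. Among the 2893 pairs with a member in either list, where the class differed the centres lay a median of 225.5 bp apart (1945 pairs), and where it was kept, 89 bp (948 pairs). Over all shared pairs the median was 196.5 bp.

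**Figure D3:**
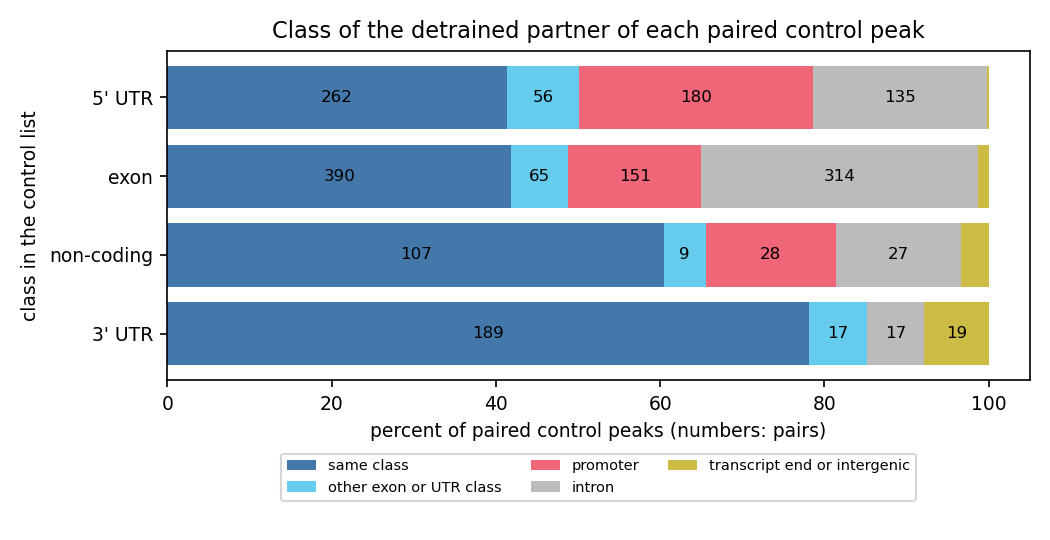
For each class of the control list, the percent of its paired peaks whose detrained partner had the same class, another exon or UTR class, the promoter class, the intron class, or a transcript end or intergenic class, with the number of pairs printed where the segment exceeds 5%. Of the paired peaks, 262 of 634 5' UTR peaks and 390 of 932 exon peaks kept their class, against 189 of 242 3' UTR peaks.

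Whether the 4 weeks of running left a mark after 72 h of rest was asked on the 1095 pairs whose peaks were both members. They were 262 5' UTR, 390 exon, 189 3' UTR and 107 non-coding pairs and 147 pairs of mixed class. The median log2 ratio of detrained over control density was -0.05 (quartiles -0.20 and 0.12), and it was -0.03 over all 26422 shared pairs. Median log2 densities of the member pairs were 5.68 and 5.67 in control libraries, 5.68 in Ex1 and 5.58 in Ex2, so only Ex2 lay apart and the SD within groups of 0.05 was as large as the shift. Without Ex2 the median was 0.01, and with tags in listed peaks as the scale it was 0.004. By class the medians were -0.06 for 5' UTR, -0.04 for exon, -0.06 for 3' UTR and -0.005 for non-coding pairs, each below the SD within groups of 0.06 to 0.08. Because each list carries its own normalization, the groups were compared without a test. Exact permutation of 2 against 2 libraries could reach no two-sided p under 0.333. The spread given is between single animals that the labels do not describe further, and part of it may be technical.

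In 302 member pairs (27.6%) the detrained libraries were both lower than either control library, and in 226 (20.6%) both were higher. Among all shared pairs the same rule held for 27.2% and 21.3%, so the members stood at the background. At a difference of at least 1.5-fold without overlap, 18 member pairs (1.64%) were lower and 6 (0.548%) higher, beside 2.06% and 1.11% of all shared pairs. At 2-fold no member pair was called in either direction, where 0.0606% of all shared pairs were lower and 0.0151% higher. The counts at 1.5-fold were 31 lower and 42 higher when tags per peak were used in place of density, 13 and 13 with tags in listed peaks as the scale, and 13 and 10 with the median of all shared pairs set to 0. The shares of all shared pairs under these settings were 5.09% and 5.50%, 1.45% and 1.70%, and 1.72% and 1.37%. Among members the counts were 30 and 10 without C2, beside 4.10% and 1.60% of all shared pairs, and 30 and 18 without C3, beside 2.21% and 2.43%. They were 40 and 10 without Ex1, beside 3.16% and 1.31%, and 19 and 17 without Ex2, beside 2.65% and 2.30%.

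**Figure D4:**
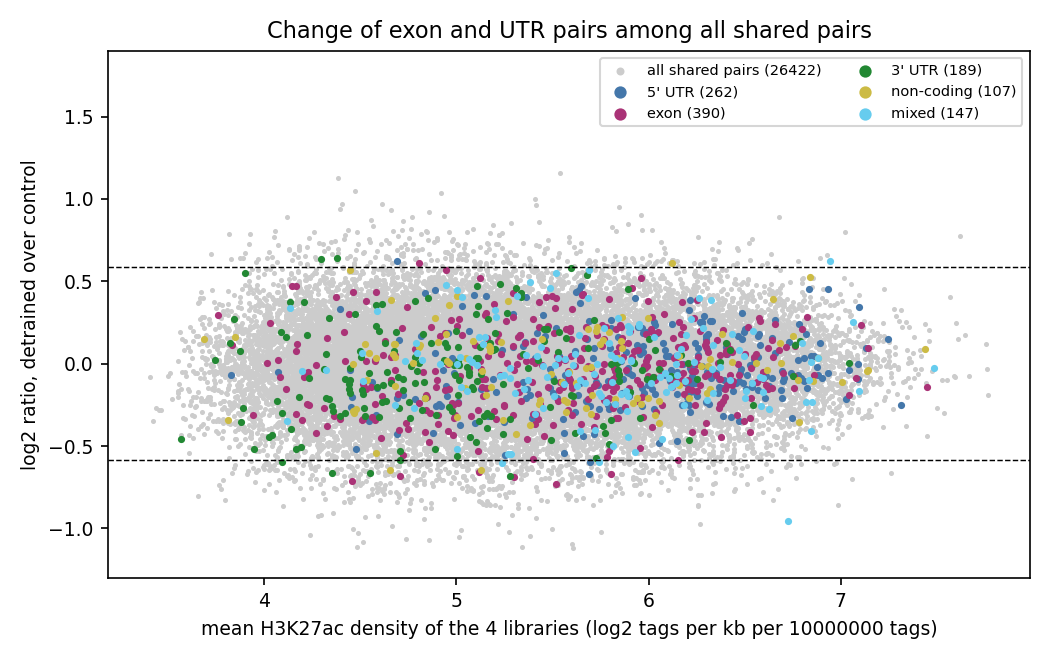
Log2 ratio of detrained over control density against the mean log2 density of the 4 libraries, for all 26422 shared pairs (grey) and the 1095 exon and UTR pairs (coloured by class). Dashed lines mark 1.5-fold. Coloured points lie within the grey cloud, with Keap1 at -0.96 at its lower edge, and most lie between the dashed lines at every density.

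Density divides the tags by the length of each list's own peak, so a longer call lowers it by construction. Of the 18 lower pairs, 14 had a longer peak in detrained mice, and of the 6 higher pairs 4 had a shorter one. The same shares among all called pairs were not computed, so nothing particular to the members is read from these counts. Counted as tags per peak, 16 of the 18 and 4 of the 6 kept their sign, and 5 and 2 still differed by 1.5-fold. The largest decrease was at Keap1, the sensor that targets NRF2 for degradation (chr9:21237175-21239807 in control). Its density was 143 and 152 tags per kb in control and 80.7 and 71.6 in detrained mice, a log2 ratio of -0.96 (SD within groups 0.10). The control peak measured 2632 bp and the detrained peak 5201 bp, its class changed from 5' UTR to exon 1, and the tags per peak differed by 0.03 on the log2 scale. The tags at Keap1 were thus nearly equal, over calls of unequal length.

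The next decreases were smaller. Exon 1 of Ppp1r3f, a glycogen-targeting subunit of protein phosphatase 1 on chromosome X, had 59.6 and 58.3 tags per kb in control and 39.1 and 32.3 in detrained mice (log2 ratio -0.73, and -0.32 as tags per peak). A peak in exon 10 of Srrm2, a splicing protein, was named for Mir5125 and had 24.8 and 31.7 against 21.9 and 13.4 (-0.71, and -0.58 as tags per peak). The detrained libraries differed from each other there by more than C2 from Ex1. Exon 1 of Dhx30, an RNA helicase of mitochondrial ribosomes, had 47.3 and 53.0 against 29.6 and 32.6 (-0.69, and -0.30 as tags per peak). The 3' UTR of Phtf2 had 44.8 and 53.8 against 29.4 and 31.9 (-0.68, and -0.15 as tags per peak).

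Stap2, which encodes a signalling adaptor, showed the largest decrease among 5' UTR pairs. It had 70.5 and 60.2 tags per kb in control and 40.7 and 41.1 in detrained mice, a log2 ratio of -0.67 (SD within groups 0.11). The control peak measured 5464 bp and the detrained peak 5446 bp, and the tags per peak gave -0.68. In this pair both measures gave the same difference. Among non-coding pairs the largest decrease was in an exon of 2700054A10Rik, named for Smok4a, with 32.5 and 30.6 against 21.4 and 19.0 (-0.65, and -0.13 as tags per peak).

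**Figure D5:**
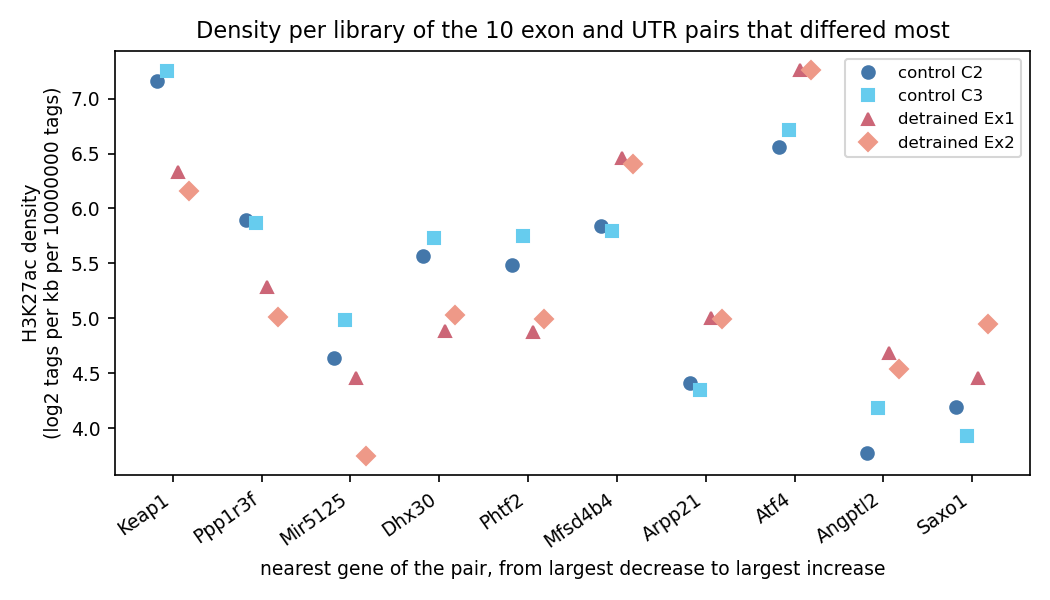
H3K27ac density in log2 tags per kb per 10000000 tags in each library for the 5 largest decreases and 5 largest increases among exon and UTR pairs whose groups did not overlap, named by nearest gene. Keap1 lies at 7.16 and 7.25 in control and 6.33 and 6.16 in detrained libraries, and Atf4 at 6.56 and 6.71 against 7.26 and 7.26.

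The increases were of like size. The largest was in the 3' UTR of Adamtsl1, named for Saxo1, at 18.3 and 15.2 tags per kb in control and 21.9 and 30.9 in detrained mice (log2 ratio 0.64, and 0.68 as tags per peak). The 3' UTR of Angptl2, a secreted angiopoietin-like protein, had 13.7 and 18.1 against 25.8 and 23.2 (0.63, and 0.48 as tags per peak). Both are weak peaks far from a start site, at 130999 and 31434 bp from the nearest TSS in the control list. Atf4, the main transcription factor of the integrated stress response, had 94.0 and 105 against 153 and 153 (0.62). The control peak measured 6869 bp and the detrained peak 3954 bp, and as tags per peak the ratio was -0.17, with the opposite sign. Arpp21, a cyclic AMP-regulated phosphoprotein, had 21.3 and 20.3 against 32.1 and 31.8 in its 5' UTR (0.62, SD within groups 0.04), and 1.00 as tags per peak, since the detrained peak was also longer. A non-coding exon at Mfsd4b4 had 57.2 and 55.6 against 87.9 and 84.7 (0.61, and -0.26 as tags per peak). The largest increase among exon pairs was the Sema6b exon named for Lrg1, at 24.6 and 20.7 against 31.8 and 37.6 (0.61, and 0.58 as tags per peak).

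Genes of muscle and of the response to running were then read from 7 lists of genes. Muscle transcription factors and cofactors held 11 pairs at 10 of 65 genes, with a median log2 ratio of 0.08. Both detrained libraries were above both control libraries in 4 of these pairs and below in 0, where 21.3% and 27.2% of all shared pairs met these rules, and none reached 1.5-fold. With 11 pairs nothing is read from these counts, nor from those of the shorter lists that follow. Nr1d1, described above, was among the strongest. Perm1, a regulator induced by PGC1 and ESRR proteins, had 55.1 and 69.9 tags per kb against 71.4 and 70.4 in exon 2, with C3 next to the detrained libraries.

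Early response genes held 9 pairs at 9 of 51 genes, with a median of 0.10. Jund, a subunit of AP-1, had 131 and 134 tags per kb in control and 103 and 96.3 in detrained mice, a log2 ratio of -0.41 (SD within groups 0.05). The control peak measured 6717 bp and the detrained peak 9366 bp, and the tags per peak gave 0.07. Ier5, a regulator of heat shock factor activity, had 95.5 and 101 against 99.1 and 86.9. Rhob, a small GTPase of endosomes, had 78.8 and 84.3 against 93.5 and 83.9. These 3 genes have a single exon in the transcripts used. Across the whole list 2 pairs were lower and 2 higher without overlap.

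Of 39 glycolysis and glycogen genes 3 had a pair, and 8 control and 10 detrained members lay in exons of genes of this list. Tbc1d4, also known as AS160, which holds GLUT4 inside the cell until insulin or contraction signals, had 58.7 and 69.3 tags per kb in control and 40.5 and 43.8 in detrained mice at its 5' UTR. This log2 ratio of -0.60 was the only call at 1.5-fold in the 7 lists. The control peak measured 1876 bp and the detrained peak 2630 bp, and as tags per peak the ratio was -0.11. Ppp1r3c, a subunit that directs protein phosphatase 1 to glycogen, had 64.8 and 81.2 against 64.5 and 64.1 (log2 ratio -0.17, and 0.20 as tags per peak). The lactate transporter Slc16a1 had 12.1 and 12.3 against 13.5 and 16.6 in exon 4, below the lower quartile of all members (log2 ratio 0.29, and 1.15 as tags per peak, with a control peak at the 500 bp minimum and a detrained peak of 904 bp). Of 56 mitochondrial and fatty acid oxidation genes 1 had a pair, Pdk2, a kinase that inhibits pyruvate dehydrogenase, with 93.0 and 114 against 99.4 and 94.2.

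Of 58 sarcomere and cytoskeleton genes 2 gave a name to a pair, and neither peak lay in the named gene. The pair named for Myoz2 lay in exon 4 of Synpo2, an actin-binding protein of the Z-disc, with 81.9 and 107 tags per kb against 93.5 and 89.9. The pair named for Lmod2 lay in the 3' UTR of Asb15 and had 39.7 and 45.6 against 61.1 and 62.5, a log2 ratio of 0.54 (0.10 as tags per peak, with a control peak of 5615 bp and a detrained peak of 4153 bp). By host gene, 23 control and 14 detrained members lay in exons of 10 sarcomere genes in each list, with a titin share of 11 and 4. For calcium handling and excitation, 1 of 41 genes had a pair, the potassium channel gene Kcnj11, with 89.7 and 116 against 87.6 and 83.5 (log2 ratio -0.25, and 0.07 as tags per peak).

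Vessel growth and matrix genes held 6 pairs at 6 of 46 genes, 2 of them lower and 2 higher without overlap, with a median log2 ratio of -0.17. Egln1, the oxygen-sensing hydroxylase PHD2, had 91.3 and 109 tags per kb against 97.1 and 90.4. Its target Hif1a had 88.0 to 96.5 in control and 107 to 114 in detrained mice (log2 ratio 0.26, and -0.10 as tags per peak). Mmp2, a gelatinase of the matrix, had 42.2 and 43.5 against 33.2 and 34.0 (-0.35, and 0.48 as tags per peak, with a control peak of 2744 bp and a detrained peak of 4900 bp). A middle exon of Col6a3, exon 40 of 44, had 44.8 and 38.4 against 28.2 and 42.9 (log2 ratio -0.25, and 0.67 as tags per peak, with a control peak of 647 bp and a detrained peak of 1224 bp).

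Of the markers of other cell types, 2 had a pair. The endothelial marker Kdr, a VEGF receptor, had a pair in its 3' UTR with 31.3 and 29.9 tags per kb in control and 47.6 and 32.0 in detrained mice (log2 ratio 0.35, SD within groups 0.29, and -0.09 as tags per peak). The satellite cell marker Myf5 had 18.2 and 16.7 against 15.3 and 17.8 in exon 1. The immune, fibroblast, smooth muscle, Schwann and adipocyte lists had no pair. By host gene, fibroblast markers held 4 of the 2816 control and 2 of the 2617 detrained members and immune markers 2 and 0. Endothelial markers held 3 and 3, smooth muscle markers 2 and 2, satellite cell markers 2 and 2, adipocyte markers 1 and 1, and Schwann cell markers 0 and 0.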

How the data were processed

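H3K27ac ChIP-seq of quadriceps was taken from 2 deposited peak tables, 1 per group. Reads were mapped to mm10 by the authors, with Bowtie (1.2 in the submitters' processing notes), who used HOMER to call peaks on both libraries of a group against its input, and to annotate them. The deposited signal per peak is the pooled tags per 10000000. The authors made the deposited log2 values per library with the regularized log of DESeq2 within each table, so differences between libraries of a group are shrunken. The authors' fold over input and adjusted p-value served only for a stricter list (at least 4-fold, adjusted p under 0.001). The control columns are named C2 and C3 and were assigned to the group only.

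Pooled tags (whole within 0.25 tags) were shared between libraries by their totals and log2 values. Density was (tags + 0.5) per kb per 10000000 tags, on a log2 scale for ratios. GC and CG content (central 1 kb), start sites and host genes came from RefSeq for GRCm38. No peak passed a chromosome end. A count test was foreseen only for tables with counts per library, so the groups were described without a test, and differences of level within libraries were tested by exact sign-flip permutation. Named pairs were the 3 strongest per class, the 5 largest decreases and increases without overlap and the largest per class, up to 4 per gene list, the genes with the most members and the 3 longest. Some of the pairs so chosen are not reported here. The members and lists were chosen with earlier results of these data known. The steps were tested on simulated data. Python 3.11.15, numpy 2.4.6, pandas 2.3.3 and pysam 0.24.0 were used.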

Additional observations from a re-analysis of the deposited data

How the results depend on the processing

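No paired analysis was possible because column names of control libraries carry other numbers than the labels and the methods describe no matched animals. Mice went at random to cages with or without wheels, and each H3K27ac library came from 1 animal. The replicate numbers in the labels therefore name no known pairs. The separately normalized tables were not tested against each other. Of 140 recomputed values, 32 moved: medians by more than the spread between libraries, counts by more than 1.5 times, and shares of peaks beyond the binomial interval (Wilson) of the main share, which covers counting error only. The 39 recomputed differences in level are judged by sign alone and kept it, but not always their size. At 1 kb or more from a TSS the difference of members to intron peaks was 0.0279 and that of exon to 3' UTR peaks 0.0423. That of 5' UTR to 3' UTR peaks was 0.841 there, against 1.245 in the main setting. The difference of members to promoter peaks was -0.239 with stricter peaks. Of 65 recomputed medians of log2 ratios, 11 lay on the other side of 0 (2 for all members, 1 for 5' UTR, 2 for exon, 1 for 3' UTR and 5 for non-coding pairs), so the medians have no stable sign. The difference to promoters could not be recomputed at 1 kb or more, where no promoter peak lies. The 18 lower and 6 higher pairs became 31 and 42 by tags per peak, 6 and 2 with 80% or more of both peaks covered, 63 and 23 where either peak was a member, 8 and 3 at least 1 kb from a TSS, and 8 and 2 with stricter peaks. In the same order, these counts come from 1095, 671, 2893, 394 and 831 member pairs. Their shares were 2.83% and 3.84%, 0.894% and 0.298%, 2.18% and 0.795%, 2.03% and 0.761%, and 0.963% and 0.241%. Of all shared pairs, 5.09% and 5.50%, 0.645% and 0.263%, 2.06% and 1.11%, 2.28% and 1.18%, and 1.75% and 0.782% met the same rules. The higher pairs became 13 with tags in listed peaks as the scale and 10 with the median of all shared pairs set to 0. Without a library the lower pairs ranged from 19 to 40 and the higher pairs from 10 to 18. The median log2 ratio of member pairs was 0.00386 with tags in listed peaks as the scale. Leaving out a library moved it from -0.0937 to 0.0133, that of 5' UTR pairs from -0.11 to 0.0126, and that of 3' UTR pairs from -0.135 to 0.0270. The share of members paired was 37.7% in control and 41.3% in detrained mice with 80% or more covered, 73.7% and 79.9% with any one-to-one overlap, and 87.0% and 84.0% with stricter peaks. Members made up 7.52% of the control and 7.49% of the detrained list with stricter peaks, and 6.30% of the control list when both lists held equal numbers of the strongest peaks. The cause of these shifts was not tested. With 2 libraries per group and shrunken values, the spread of single peaks, above all weak ones, is understated.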
